A study of Mus musculus with 4 samples.

Results

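The genes described here belong to the bile duct lining and to simple epithelium, and their levels are given across the cells of mouse liver and liver tumor. They are Epcam, Krt7, Krt19, Sox9, Cldn4, Cldn7, Krt8, Krt18, Cdh1 and Cd24a. They were taken by gene symbol, and all 10 were found among the 31053 genes of the deposited matrix. The animals were mice in which hepatocellular carcinoma, the main cancer of hepatocytes, was induced by a gene, and each stage was 1 sample of single cells. HCC-ES was tumor at week 4, HCC-MS tumor at week 8, HCC-LS tumor at week 10 by its label and week 12 by the series text, and HCC-NL normal liver at week 0. The labels do not name the inducing gene, the strain, the sex, the age or the number of animals. The deposited matrix pools the samples, its cell barcodes end in 1 to 4, and no source pairs an ending with a sample. Each ending is called a library below, the pool is treated as 1 sample, the weeks are not compared, and no test between groups was made. Intervals are 95% and cover counting error only.

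The liver holds both kinds of epithelial cell that these genes tell apart. Cholangiocytes line the bile ducts and carry the adhesion molecule EpCAM, the ductal keratins 7 and 19 and the transcription factor SOX9, which takes part in forming the ducts. Hepatocytes normally use keratins 8 and 18 as their only keratin pair. Keratins are filament proteins that assemble from a type II and a type I partner, claudins seal tight junctions, E-cadherin (Cdh1) joins neighbouring epithelial cells, and CD24 is a small surface glycoprotein shared by epithelium and several blood cell lineages.

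After filtering, 34783 cells with 121711159 UMIs (unique molecular identifiers, each marking 1 captured RNA molecule) were left, at a median of 1287, 3369, 1309.5 and 2597 UMIs per cell in libraries 1 to 4. Between 104 and 147 barcodes were shared by each pair of libraries, 1.10% to 1.55% of either library. Clustering, from which the 10 genes were left out, gave 25 clusters, and 23 of them were named from other marker genes into 15 classes. The cholangiocyte-like class was 1 cluster of 101 cells, 12 of whose 15 markers were detected in at least 10% of its cells. Osteopontin (Spp1) and clusterin (Clu) were found in all of them, whereas the secretin receptor Sctr and the chloride channel Cftr had 2 and 11 UMIs and Fxyd2 had none. It held 74, 1, 23 and 3 cells of libraries 1 to 4. The hepatocyte-like class had 8 clusters with 3693, 4451, 6417 and 5752 cells of libraries 1 to 4, 20313 in all. The pooled hepatocyte level therefore rests mainly on libraries 2 and 4, which have the deeper cells, and the cholangiocyte level on libraries 1 and 3.

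The genes fell into those of the duct cells and those of both epithelial cells. Levels are summed UMIs scaled to 1000000 UMIs of the class (CPM), and a gene is counted as higher or lower when its level differed at least 2-fold with at least 100 UMIs over both classes. Of the 9 genes with 100 UMIs, 9 were higher in cholangiocyte-like than in hepatocyte-like cells and 0 were lower. Of all 11215 genes so compared, 30.0% were higher and 16.4% lower. The median log2 ratio was 7.69 over the 9 genes and 0.27 over all. These counts describe 1 pooled sample, and the 10 genes are known for the difference that they show here.

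**Figure D1:**
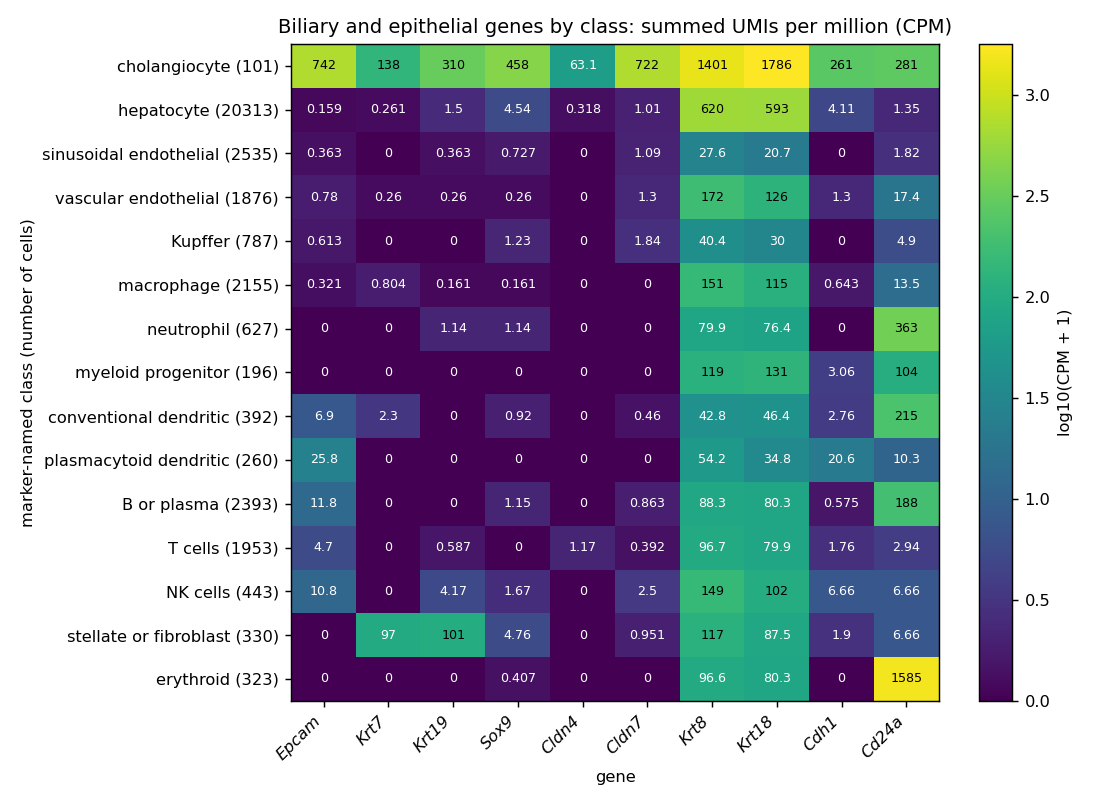
Level of each gene (columns) in each marker-named class (rows, with the number of cells), in CPM; the colour is log10(CPM + 1) and the printed numbers are CPM. Epcam and Cldn7 stood at 742 and 722 CPM in the cholangiocyte-like row and at 0.159 and 1.01 CPM in the hepatocyte-like row, Krt8 and Krt18 were high in both, and Cd24a was highest in the erythroid row.

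Epcam, the adhesion molecule of duct cells, was at 742 CPM (675 to 814) in cholangiocyte-like cells and 0.159 CPM (0.0869 to 0.267) in hepatocyte-like cells, a 4665-fold ratio (2751 to 8603). By library it was at 795, 0, 776 and 317 CPM in the cholangiocyte-like cells of libraries 1 to 4, of which libraries 2 and 4 held 1 and 3 cells. In hepatocyte-like cells it was at 0.145, 0.267, 0.120 and 0.0652 CPM in libraries 1 to 4, from 14 UMIs in 14 cells. The ranges did not overlap except at the single cholangiocyte-like cell of library 2, whose 0 UMIs set a floor of 175 CPM (3 counts). An Epcam UMI was found in 85.1% (76.7 to 91.4) of cholangiocyte-like cells, at a median of 3399 UMIs, and in 0.0689% (0.0377 to 0.116) of hepatocyte-like cells, at a median of 2218 UMIs. With each cell thinned to 1000 UMIs the shares were 53.6% of 97 cells, with 4 shallower ones left out, and 0.0124% of 16166 cells, with 4147 left out.

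Cldn7, a tight junction claudin of duct epithelium, was at 722 CPM (656 to 793) in cholangiocyte-like cells and 1.01 CPM (0.812 to 1.24) in hepatocyte-like cells, with a ratio of 714 (567 to 908). The cholangiocyte-like cells of libraries 1 to 4 had 769, 175, 742 and 349 CPM, and the hepatocyte-like cells 0.289, 2.34, 0.120 and 0.196 CPM. Its lowest cholangiocyte value, from 3 UMIs in the single cell of library 2, was still above every hepatocyte value. The ratio was 2656 within library 1 and 6210 within library 3, on 2 hepatocyte UMIs each. Cldn4, its relative, was sparse, with 38 UMIs in cholangiocyte-like and 28 in hepatocyte-like cells, under the minimum for a count. It stood at 63.1 CPM (44.6 to 86.6) in cholangiocyte-like cells and 0.318 CPM (0.211 to 0.460) in hepatocyte-like cells.

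Krt7, the type II keratin of ducts, was at 138 CPM (110 to 171) in cholangiocyte-like cells and 0.261 CPM (0.166 to 0.392) in hepatocyte-like cells, with a ratio of 527 (329 to 877), which was 1008 within library 1 and 1185 within library 3. Krt19, a type I keratin of ducts, was at 310 CPM (267 to 358) in cholangiocyte-like cells and 1.50 CPM (1.25 to 1.78) in hepatocyte-like cells, with a ratio of 207 (165 to 261). The cholangiocyte-like cells of libraries 1 and 3 had 231 and 550 CPM of Krt19, and the hepatocyte-like cells of those libraries 0 and 0.179 CPM. Against the floor of 3 UMIs in the hepatocyte-like cells of library 1, Krt19 was at least 531-fold higher in cholangiocyte-like cells, and the counting interval, which also covers its 87 UMIs in those cells, began at 423. Within library 3 the ratio was 3065, with a lower bound of 1018. The Krt19 of hepatocyte-like cells was held by few cells: 132 UMIs lay in 29 of 20313 cells, 42 of them in 1 cell and 78.8% in 5 cells. Krt7 was the same, with 15 of its 23 hepatocyte UMIs in 1 cell.

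Sox9, the transcription factor of the duct lineage, was at 458 CPM (406 to 515) in cholangiocyte-like cells and 4.54 CPM (4.11 to 5.01) in hepatocyte-like cells, with a ratio of 101 (86.2 to 118). Within library 1 the ratio was 48.3 (482 against 9.98 CPM) and within library 3 it was 30.6 (465 against 15.2 CPM). The cholangiocyte level was close in both libraries, and the smaller ratios came with hepatocyte levels above those of libraries 2 and 4, which were 1.90 and 0.424 CPM. The Sox9 UMIs of hepatocyte-like cells were spread over many cells, 400 UMIs in 339 cells with 8.50% of them in the top 5, in contrast to Krt19.

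Cdh1, which encodes E-cadherin, was at 261 CPM (221 to 305) in cholangiocyte-like cells and 4.11 CPM (3.70 to 4.56) in hepatocyte-like cells, with a ratio of 63.4 (52.2 to 76.6), which was 118 within library 1 and 101 within library 3. Because hepatocyte-like cells were so many, they still held 61.6% of all Cdh1 UMIs, and cholangiocyte-like cells 26.7%. Cd24a, the surface glycoprotein, was at 281 CPM (240 to 326) in cholangiocyte-like cells and 1.35 CPM (1.12 to 1.62) in hepatocyte-like cells, with a ratio of 208 (163 to 265). Within library 1 it was at 191 against 0.145 CPM, a ratio of 1319 (229 to 52815), and within library 3 at 425 against 0.418 CPM, a ratio of 1016 (469 to 2613). In a further choice cells were sorted 1 by 1. Those with UMIs of at least 3 of the 15 cholangiocyte markers (2448 cells) formed the first side. Those with at least 8 hepatocyte and under 3 cholangiocyte markers (13707 cells) formed the other. The log2 ratio of Cd24a was then -1.39, so its direction turned with that choice. As given further below, most of those 2448 cells had under 3 duct genes, so they are not the cholangiocyte-like class used here.

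Krt8 and Krt18, the type II and type I keratins of simple epithelium, were high in both epithelial classes. Krt8 was at 1401 CPM (1308 to 1499) in cholangiocyte-like cells and 620 CPM (615 to 625) in hepatocyte-like cells, with a ratio of 2.26 (2.11 to 2.42). Krt18 was at 1786 CPM (1681 to 1896) in cholangiocyte-like cells and 593 CPM (588 to 598) in hepatocyte-like cells, with a ratio of 3.01 (2.83 to 3.20). Within libraries the difference was larger. Krt8 stood at 832 CPM in cholangiocyte-like and 166 CPM in hepatocyte-like cells of library 1 (5.02-fold), and at 2437 and 243 CPM in those of library 3 (10.0-fold). Krt18 was 6.17-fold higher in library 1 and 6.12-fold higher in library 3. Without library 3 and with the classes kept, Krt8 no longer passed 2-fold, at a log2 ratio of 0.46, and 7 of 8 genes were higher.

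**Figure D2:**
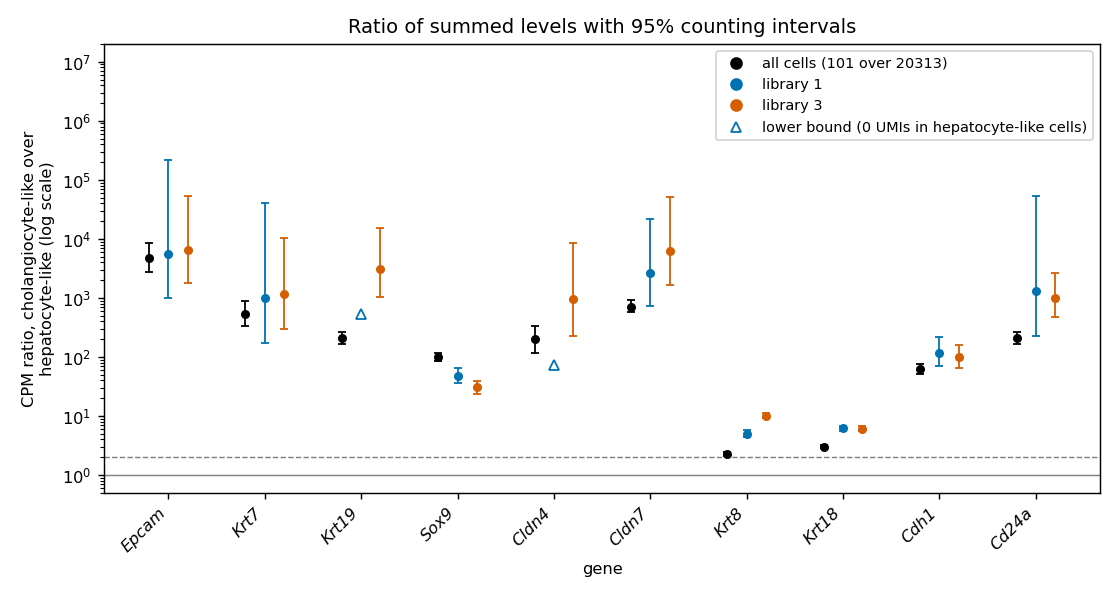
Ratio of CPM in cholangiocyte-like over hepatocyte-like cells for each gene (log axis), over all cells (black), within library 1 (blue) and within library 3 (orange), with 95% counting intervals; the dashed line marks 2-fold and triangles are lower bounds. Krt8 and Krt18 sat lowest at 2.26 and 3.01 over all cells and lay between 5.02 and 10.0 within libraries, while Epcam was highest at 4665.

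Markers of hepatocytes and genes of dissociation stress moved with this comparison. The 13 hepatocyte markers summed to 7318 CPM in cholangiocyte-like cells and 23964 CPM in hepatocyte-like cells. All 10 dissociation stress genes were higher in cholangiocyte-like cells, among them Atf3, a stress transcription factor (2872 against 60.3 CPM), and Fos, an immediate-early gene (1164 against 28.6 CPM). The part of either in the ratios was not tested. Apart from the macrophage list, marker lists of blood and vessel cells were low in cholangiocyte-like cells. They ran from 0 CPM for the 9 NK markers to 244 CPM for the 8 plasmacytoid dendritic markers. The 10 macrophage markers summed to 12147 CPM, against 30037 CPM in the macrophage class. Of these 10 markers 1 was found in at least 10% of the cholangiocyte-like cells.

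Other epithelial genes were taken from lists by function. Of 24 junction, surface and protease genes, 17 had enough UMIs, 13 were higher in cholangiocyte-like cells and 1 was lower, with a median log2 ratio of 2.39. The largest were Prom1, a membrane protein of epithelial protrusions (94.6 against 1.91 CPM), the desmosomal cadherin Dsg2 (910 against 30.0 CPM), which is also among the markers that named the class, and Cdcp1, a surface protein (28.2 against 1.09 CPM). F11r, the junctional adhesion molecule A, followed at 224 against 18.3 CPM. Of 21 transcription and splicing genes, 12 had enough UMIs, 10 were higher and 1 lower, with a median of 1.94. Sox4 was at 329 against 3.20 CPM and the Notch target Hes1 at 239 against 9.02 CPM. The lower one was Esrp2, an epithelial splicing regulator, at 8.30 CPM in cholangiocyte-like and 48.0 CPM in hepatocyte-like cells. Of 11 other keratins 2 had enough UMIs and both were higher, Krt23 at 153 against 0.534 CPM and Krt10 at 31.5 against 9.50 CPM. Of the 14 other claudins in the matrix 5 had enough UMIs and 1 was higher, Cldn3 at 896 against 97.1 CPM.

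The duct genes were found together in the same cells. Of all analysed cells, 84 had UMIs of at least 3 of the 6 duct genes (Epcam, Krt7, Krt19, Sox9, Cldn4 and Cldn7), and 80 of them were cholangiocyte-like (95.2%, 88.3 to 98.7). Conversely 80 of the 101 cholangiocyte-like cells (79.2%, 70.0 to 86.6) passed this mark. The 21 that did not had a median of 1710 UMIs, against 4223 UMIs in the 80, so depth moved with the count. Of hepatocyte-like cells, 19869 had none of the 6 genes, 434 had 1, 8 had 2 and 2 had 3. Thinned to 1000 UMIs and clustered again, 26 of 96 cholangiocyte-like cells (27.1%) passed, and no other cell did. Of the full set of 10 genes, cholangiocyte-like cells had UMIs of a median of 6, from 0 to 10.

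**Figure D3:**
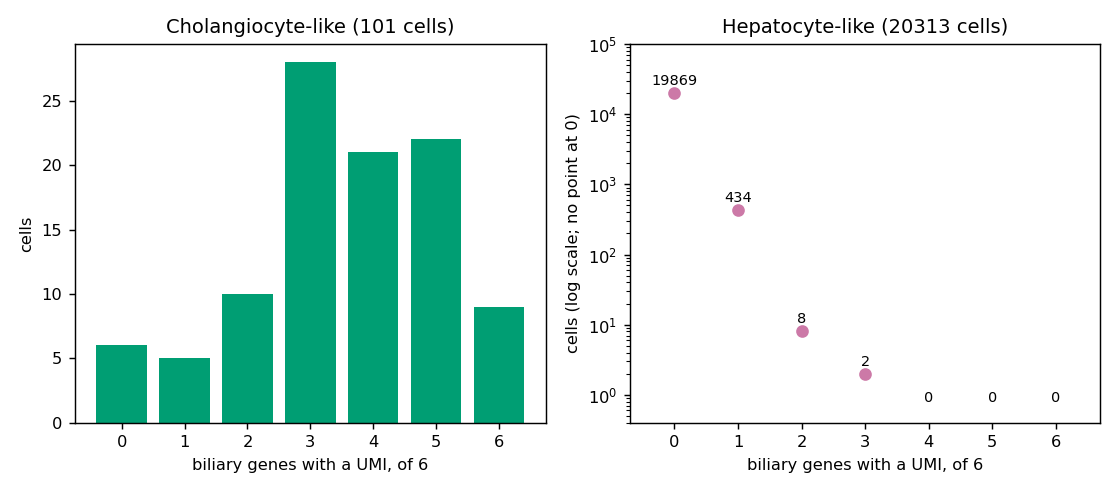
Number of cells (vertical axis, linear on the left and logarithmic on the right) by the number of the 6 duct genes with a UMI. Of 101 cholangiocyte-like cells most had 3 to 6, with a peak of 28 cells at 3, whereas 19869 of 20313 hepatocyte-like cells had 0 and 2 had 3.

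Among cholangiocyte-like cells, the overlap of genes differed between pairs, and so did the share of cells with each gene. All 19 cells with Cldn4 also had Cldn7, Krt8 and Krt18, 39 of the 40 cells with Krt7 had Epcam, and 77 of the 84 cells with Cldn7 had Epcam, which 85.1% of the class had. Krt7 and Krt19 met in 29 cells, which is 72.5% of the 40 Krt7 cells and 51.8% of the 56 Krt19 cells. Of the whole class, 83.2% had Cldn7, 91.1% Krt8, 88.1% Krt18, 55.4% Krt19 and 39.6% Krt7. Whether the overlaps exceed what these shares give was not tested. The 4 cells outside the class with at least 3 duct genes were of 3 classes. The barcodes in the NK class and in a vascular endothelial cluster, both of library 1, carried 39 and 18 UMIs of Spp1, 56 and 36 of Clu and 14 and 3 of the duct marker Tm4sf4, with doublet scores of 0.248 and 0.236, just under the 0.25 at which barcodes were removed. The other two barcodes, in the Afp-led hepatocyte-like cluster, were deep barcodes of 85677 UMIs in library 2 (15 Krt7, 30 Krt19 and 8 Sox9 UMIs) and 23618 UMIs in library 4 (1 UMI each of Epcam, Sox9 and Cldn4). Neither had an Spp1 UMI, but the barcode of library 4 had 107 Clu and 48 Tm4sf4 UMIs.

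Hepatocyte-like cells varied among themselves in most of the genes, and Krt8, Krt18, Sox9 and Cdh1 had the most UMIs to show it. By library, Krt8 was at 166, 817, 243 and 712 CPM in the hepatocyte-like cells of libraries 1 to 4, and Krt18 at 212, 670, 384 and 708 CPM. Sox9 was at 9.98, 1.90, 15.2 and 0.424 CPM, and Cdh1 at 2.31, 7.86, 2.63 and 1.21 CPM. Most hepatocyte-like clusters came largely from 1 or 2 libraries, so cluster and library cannot be told apart except where a cluster held 20 or more cells of several. Over all libraries Krt8 was highest in cluster 20, which had Krt8, Krt18, Tm4sf4 and the growth factor binding proteins Igfbp1 and Igfbp2 among its 10 leading genes. There Krt8 was at 1279, 431 and 837 CPM in libraries 2, 3 and 4, and Krt18 at 1158, 215 and 829 CPM. The order turned between libraries, since Krt8 was at 895 CPM in cluster 22 of library 4 and at 536 CPM in cluster 21 of library 3.

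Clusters were also picked by the summed level of each hepatocyte state list. The cluster with the most pericentral RNA (cluster 21, led by Oat and Glul, which makes glutamine near the central vein) had Krt8 at 782 CPM and Krt18 at 780 CPM. The cluster with the most cell cycle RNA (cluster 22, led by Cdk1) had Krt8 at 967 CPM and Krt18 at 635 CPM. The cluster with the most periportal RNA (cluster 8, led by the serine-degrading enzyme Sds) had Krt8 at 205 CPM, Krt18 at 518 CPM and Sox9 at 19.3 CPM. The cluster with the most acute phase RNA (cluster 13, led by serum amyloid genes Saa1 and Saa2) also had the most adult differentiated RNA, and held Krt8 at 210 CPM, Krt18 at 390 CPM and Sox9 at 18.3 CPM. Sox9 was at 0.469 CPM in cluster 21 and 0.779 CPM in cluster 22. Both also carried the fetal and carcinoma list described below, at 2628 and 4792 CPM. Clusters 8 and 13 had 126 and 49.1 CPM of that list. The Sox9 levels are therefore not a contrast of liver zones alone. Nearly all cells of clusters 8 and 13 were of library 3, and most of clusters 21 and 22 were of libraries 2 and 4, so the pooled values mix state with library. Within library 3, Sox9 was at 19.4 CPM (15.6 to 23.9) in cluster 8 and 18.4 CPM (15.4 to 21.8) in cluster 13, and at 3.32 CPM (0.402 to 12.0, from 2 UMIs) in its 134 cells of cluster 21.

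**Figure D4:**
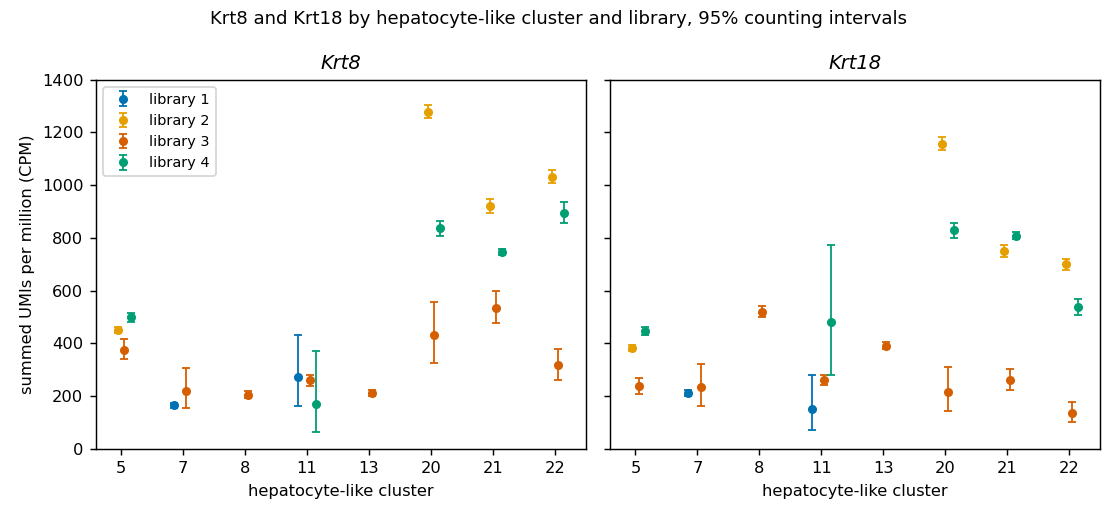
Level of Krt8 (left) and Krt18 (right) in CPM by hepatocyte-like cluster and library, for 20 or more cells, with 95% counting intervals. In cluster 20 Krt8 stood at 1279 CPM in library 2, 837 CPM in library 4 and 431 CPM in library 3, whereas the Afp-led cluster 5 lay between 376 and 499 CPM in the same libraries.

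The partner keratins did not keep 1 ratio. The UMIs are 3′ tags with no length correction, so the ratio of Krt18 to Krt8 UMIs is read only between groups of cells. It was 2.53 (2.35 to 2.73) in cluster 8 and 1.86 (1.74 to 1.98) in cluster 13. Cluster 11 had 1.01 (0.907 to 1.12) and the cycling cluster 22 had 0.657 (0.635 to 0.679). By library it was 1.28, 0.820, 1.58 and 0.995 in the hepatocyte-like cells of libraries 1 to 4. The difference was also present inside library 3. Its 346 cells in clusters mostly made of libraries 2 and 4 had Krt8 at 414 CPM (387 to 442) and Krt18 at 224 CPM (205 to 245), and its other 6071 hepatocyte-like cells had Krt8 at 218 CPM (210 to 225) and Krt18 at 407 CPM (397 to 418). Sox9 was at 2.81 CPM (1.03 to 6.12, from 6 UMIs) in the 346 cells and 17.0 CPM (14.9 to 19.2) in the others. The 346 cells had a median of 3076.5 UMIs and the others 1300, and the part of depth was not tested. Not all of the 6071 cells had more Krt18 than Krt8. The 1972 of them in cluster 11 had Krt8 at 259 CPM (240 to 280) and Krt18 at 261 CPM (241 to 281).

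The hepatocyte-like cluster with the highest summed level of the fetal and carcinoma list (Afp, H19, Igf2, Gpc3, Dlk1 and Peg10) was cluster 5. It was led by Afp, alpha-fetoprotein, the fetal albumin relative used as a marker of liver cancer, and held 2352 cells, of which 1426, 103 and 821 were of libraries 2, 3 and 4. The list stood at 6685 CPM in cluster 5 and at 4792, 3250 and 2628 CPM in clusters 22, 20 and 21. Clusters 11, 8, 13 and 7 had 713, 126, 49.1 and 3.91 CPM of it. The other hepatocyte-like cells thus include clusters that also carry this list. Cluster 5 was compared with these other 17961 cells. Of the 6 genes with at least 100 UMIs, 3 were at least 2-fold higher in cluster 5 and 1 was lower. Of all 11147 genes compared, 29.7% were higher and 5.74% lower, and the median log2 ratio was 0.43 over the 6 genes and 0.37 over all. With the classes kept, 0 of 3 genes were higher without library 2, 1 of 4 without library 4, and 0 of 6 were lower without library 3. All 10 dissociation stress genes were higher there as well, for example Jun (494 against 63.2 CPM), and their part was not tested.

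Krt19 was at 5.13 CPM in the Afp-led cluster and 0.245 CPM in the other hepatocyte-like cells, a ratio of 21.0 (12.4 to 38.0). It was at 5.30 against 0.261 CPM in library 2 and 5.56 against 0.338 CPM in library 4, while library 3 had 0 and 3 UMIs. With the 10 genes kept in the clustering, the log2 ratio was 1.93 instead of 4.39. With 116 UMIs in 0.680% of its cells, this level belongs to few cells. In library 2, 1 cell held 42 of the 77 Krt19 UMIs of the cluster, and the barcode of 85677 UMIs held 30. In library 4, 1 cell held 26 of the 39 UMIs. The ratio, its interval and the likeness of libraries 2 and 4 thus rest on very few barcodes. Cdh1 was at 12.2 CPM in the Afp-led cluster and 1.33 CPM in the others, a ratio of 9.16 (7.17 to 11.8). It was higher in each library that could be compared, at 16.2 against 1.56 CPM in library 2, 12.7 against 1.97 CPM in library 3 and 3.85 against 0.423 CPM in library 4. Cdh1 UMIs lay in 7.23% of the cells of the cluster, at a median of 6133 UMIs. Of all hepatocyte-like cells, at a median of 2218 UMIs, 1.25% had a Cdh1 UMI, and the part of depth was not tested. In the cluster the share was 9.96%, 4.85% and 2.80% in libraries 2, 3 and 4. In library 3, 1 cell held 5 of the 13 Cdh1 UMIs. When the cells were grouped anew the log2 ratio of Cdh1, 3.19 here, was often smaller but at least 1.43. It was 1.43 when the 10 genes were kept in the clustering, 1.72 at resolution 2 and 1.76 without library 1 or 3.

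Cd24a was at 2.52 CPM in the Afp-led cluster and 0.947 CPM in the others, a ratio of 2.66 (1.83 to 3.88). Within library 2, which held most of its UMIs, the ratio was 1.29 (0.828 to 2.01), and within library 4 it was 3.99 (1.65 to 9.83). Cldn7 reached 89 UMIs and so missed the minimum, at 2.97 CPM in the Afp-led cluster and 0.336 CPM in the others. Library 2 held 64 of its 67 UMIs in the cluster, at 4.41 against 0.782 CPM. Within library 4 it was at 0.285 against 0.169 CPM, from 2 and 4 UMIs, a ratio of 1.69 (0.153 to 11.8). Library 3 had 1 UMI on each side.

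Sox9 was lower in the Afp-led cluster over all cells, at 1.86 CPM against 5.47 CPM, a ratio of 0.340 (0.241 to 0.469). The direction differed between libraries. Within library 2 Sox9 was at 2.41 against 1.51 CPM and within library 4 at 0.713 against 0.338 CPM, both with intervals of the ratio that hold 1, and within library 3 it was at 1.96 against 16.0 CPM. Without library 3 the log2 ratio was -0.20 with the classes kept and 0.23 when cells were clustered again.

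Krt8 was at 463 CPM in the Afp-led cluster and 675 CPM in the others, a ratio of 0.686 (0.671 to 0.700), and Krt18 at 395 and 661 CPM, a ratio of 0.598 (0.584 to 0.611), so neither passed 2-fold, and the direction of both turned under some other choices of cells. With hepatocyte-like cells that had an Afp UMI, the log2 ratios were 0.30 for Krt8 and 0.18 for Krt18. Within library 2 both were under 0.5 of the level of the other cells, with ratios of 0.413 for Krt8 and 0.430 for Krt18. Krt8 had a ratio of 0.643 in library 4 and 1.61 in library 3, where it was higher in the Afp-led cells, and Krt18 had ratios of 0.567 and 0.602.

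The other epithelial lists were compared in the same cells. Of 16 junction, surface and protease genes with enough UMIs, 9 were higher in the Afp-led cluster and 0 lower, among them Prom1 (5.75 against 0.581 CPM), N-cadherin Cdh2 (150 against 18.2 CPM) and Dsg2 (86.0 against 10.7 CPM). Of 12 transcription genes 4 were higher, with Notch2, a receptor of duct formation, at 22.4 against 1.71 CPM and Sox4 at 6.42 against 2.09 CPM, a count close to the 29.7% of all genes. Of 5 other claudins 3 were higher, with Cldn2 at 67.6 against 17.0 CPM and Cldn3 at 179 against 68.6 CPM. The single other keratin with enough UMIs passed in neither direction. Cdh2, Notch2 and Cldn2 were singled out after their values were seen.

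Outside both epithelial classes, Krt7 and Krt19 had a further place. In the stellate or fibroblast class they were at 97.0 and 101 CPM, from 102 and 106 UMIs held by 12 of 330 cells, 6 of library 1, 5 of library 3 and 1 of library 4. Single cells carried much of it, with 69 of the Krt7 UMIs and 50 of the Krt19 UMIs in 1 cell each, and 96.1% and 91.5% in 5 cells. Of these 12 cells 11 had UMIs of at least 2 of the 8 mesothelial markers, genes of the cell layer that covers the liver. The mesothelial list was at 5571 CPM in the 12 cells and 128 CPM in the other 318 cells of the class, and the stellate or fibroblast list at 9596 and 15703 CPM. None of the 330 cells had an Epcam or Cldn4 UMI, and the interval allows a share of cells with a UMI of up to 1.11% for either gene.

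Cd24a was led by blood cells, as the plot of Cd24a by class shows. Erythroid-like cells stood first at 1585 CPM (1536 to 1636) and held 65.3% of all its UMIs. They were followed by neutrophil-like cells at 363 CPM (324 to 405), cholangiocyte-like cells at 281 CPM, conventional dendritic cells at 215 CPM (196 to 236), B or plasma cells at 188 CPM (174 to 203) and myeloid progenitor cells at 104 CPM (87.3 to 123). Each of these neighbours differed beyond counting error, but not always within libraries. Neutrophil-like cells had 200, 506, 316 and 560 CPM in libraries 1 to 4, and cholangiocyte-like cells had 191 and 425 CPM in libraries 1 and 3, so the order of these classes turned in library 3. From vascular endothelial cells (17.4 CPM) down to hepatocyte-like cells at the foot of the order, no 2 neighbours differed beyond counting error.

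**Figure D5:**
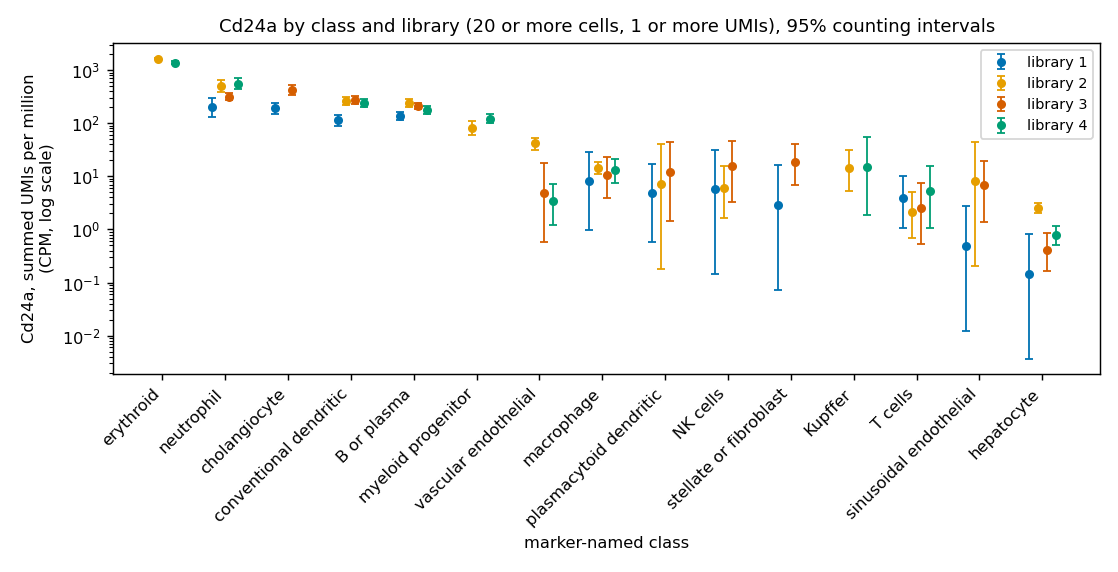
Cd24a level in CPM (log axis) by class, ordered by the level over all cells, with 1 point per library that had 20 or more cells and at least 1 UMI, and 95% counting intervals. Erythroid-like cells stood at 1655 CPM in library 2 and 1392 CPM in library 4, and hepatocyte-like cells lay between 0.145 and 2.58 CPM.

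Low levels of Epcam and Cdh1 were seen in immune classes. Epcam was at 25.8 CPM (15.8 to 39.9) in plasmacytoid dendritic cells, 11.8 CPM (8.46 to 16.0) in B or plasma cells, 10.8 CPM in NK cells, 6.90 CPM in conventional dendritic cells and 4.70 CPM in T cells, all above the 0.159 CPM of hepatocyte-like cells. By library, the plasmacytoid dendritic cells had 21.5, 14.4, 42.4 and 38.3 CPM from 9, 2, 7 and 2 UMIs. An Epcam UMI was found in 6.92% (4.15 to 10.7) of them, at a median of 2805 UMIs, and in 2.76% after thinning. No Epcam UMI was found in neutrophil-like, erythroid-like or myeloid progenitor cells. Cdh1 was at 20.6 CPM (11.8 to 33.5) in plasmacytoid dendritic cells, from 14 UMIs in library 1 and 1 each in libraries 3 and 4. An unnamed cluster of 30 cells, led by genes that include the histidine decarboxylase Hdc and Gata2, had Cdh1 at 197 CPM (94.3 to 362), from 10 UMIs in 30.0% of its cells, and none of the 6 duct genes.

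Krt8 and Krt18 were seen at a low level in every class, and there they moved with the library. In T cells Krt8 was at 15.5, 167, 19.7 and 116 CPM in libraries 1 to 4, which is 9.35%, 20.4%, 8.10% and 16.2% of the hepatocyte level of the same library. Albumin RNA (Alb) in T cells was at 11.7%, 39.3%, 24.0% and 38.3% of the hepatocyte level. A Krt8 UMI was found in 17.0% of T cells, at a median of 1954 UMIs, and in 53.4% of hepatocyte-like cells, or 6.98% and 32.6% after thinning to 1000 UMIs. In library 1 neutrophil-like cells had 27.8% of the hepatocyte level of Krt8, 7.23% of that of Krt18 and 11.4% of that of Alb. Their Krt8 value came from 6 UMIs, too few to set an order. How much of the Krt8 and Krt18 in blood and vessel classes came from hepatocyte RNA was not tested.

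Over the 25 clusters, the genes whose pattern was most like each member were found by Pearson's r of log2(CPM + 20). Clusters share libraries and depth, so r is a description. For a gene high in 1 cluster only, r rests mainly on that cluster. Cldn7 was at 722 CPM in the cholangiocyte-like cluster and at most 11.4 CPM in any other. Epcam was at 742 CPM there and at most 25.8 CPM in any other. Dcdc2a, Bicc1 and Efemp1 are among the markers used to name cells. Epcam was most like Cldn7 (0.961), then Scara3 and Krt23 (both 0.960). Cldn7 was most like the glucose transporter Slc5a1 (0.998), Krt23 (0.990) and Dcdc2a (0.990). Krt7 was most like Snhg18 (0.993), Efemp1 (0.988) and Krt19 (0.985), and Krt19 like Krt7, Snhg18 (0.983) and Bicc1 (0.981). Krt8 was most like Krt18 (0.950), Rhou (0.931) and Cblc (0.921), and Krt18 like Rhou (0.958), Cblc (0.958) and Krt8. Sox9 was most like Dab1 (0.980), Wfdc2 (0.974) and Ppp1r1b (0.972), and Cdh1 like the membrane protease St14 (0.919), Atad3aos (0.903) and Rnf39 (0.896). Cd24a stood apart from the other members, most like the cell cycle factor E2f2 (0.806), Mkrn1 (0.773) and Isg20 (0.773).

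The promoters of Epcam with Cldn7 and of Krt8 with Krt18 are shown because they carry short motifs that can be compared. Krt7 and Krt19 were more alike (0.985) than either of these pairs, but no promoter of Krt19 was matched. They are RefSeq sequences of build GRCm38.p6, 5′ to 3′, from 250 bases before to 50 bases after the annotated start. The table matched 6 of the 10 genes by symbol, with 7 promoters. Searched on both strands were CACCTG, a core letter string bound by repressors of epithelial genes such as SNAIL and ZEB proteins, TATAAA (the TATA box), GGGCGG (the GC box of SP1) and TGANTCA (the AP-1 site). Capitals mark matches of any of these. In Krt8 the forward and reverse matches of TATAAA overlap.
Epcam, chr17:87635729-87636028, plus strand: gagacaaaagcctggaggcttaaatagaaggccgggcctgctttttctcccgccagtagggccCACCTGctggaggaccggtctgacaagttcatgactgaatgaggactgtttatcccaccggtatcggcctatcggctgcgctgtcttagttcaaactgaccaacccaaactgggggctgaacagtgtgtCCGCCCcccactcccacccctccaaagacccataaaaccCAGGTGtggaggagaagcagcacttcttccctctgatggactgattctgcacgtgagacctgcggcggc
Cldn7, chr11:69965171-69965470, plus strand: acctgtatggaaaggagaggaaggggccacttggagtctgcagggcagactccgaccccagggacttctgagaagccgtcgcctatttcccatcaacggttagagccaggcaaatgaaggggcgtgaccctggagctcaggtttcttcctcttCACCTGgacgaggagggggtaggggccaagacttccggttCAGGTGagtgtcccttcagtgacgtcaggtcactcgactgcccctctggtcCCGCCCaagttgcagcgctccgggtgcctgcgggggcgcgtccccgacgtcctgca
Krt8, chr15:102004293-102004592, minus strand: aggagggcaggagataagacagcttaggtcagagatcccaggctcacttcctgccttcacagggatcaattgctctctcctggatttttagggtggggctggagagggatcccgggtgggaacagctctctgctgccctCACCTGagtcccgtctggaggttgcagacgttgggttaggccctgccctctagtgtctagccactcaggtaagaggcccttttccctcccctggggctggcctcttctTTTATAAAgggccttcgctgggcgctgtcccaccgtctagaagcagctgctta
Krt18, chr15:102027966-102028265, plus strand: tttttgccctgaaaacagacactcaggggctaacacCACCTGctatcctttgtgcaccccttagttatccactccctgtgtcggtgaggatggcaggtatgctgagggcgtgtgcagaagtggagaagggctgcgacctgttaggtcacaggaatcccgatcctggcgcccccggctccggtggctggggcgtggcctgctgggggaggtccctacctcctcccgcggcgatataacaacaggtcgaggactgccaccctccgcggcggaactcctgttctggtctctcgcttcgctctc

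CACCTG was in 6 of the 7 promoters, covering each of Epcam, Krt7, Cldn4, Cldn7, Krt8 and Krt18, and in 20.2% of all 32851 promoters of that length. GGGCGG was in 4 of 7, in Epcam, Krt7, Cldn4 and the Cldn7 promoter shown, and in 35.7% of all promoters, while neither Krt8 nor Krt18 held it. TATAAA was in Krt8 alone of the 7 (13.6% of all), and TGANTCA in Cldn4 alone (7.81% of all). The TATAAA matches of Krt8 begin 3 and 1 bases before the annotated start, so they lie across that start. A match is a string of letters in this window and not a shown site of binding.

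Counts of Krt8 and Cd24a carry an uncertainty from near-identical copies. In GENCODE vM21 transcripts, Krt8 aligned to the processed pseudogene Krt8-ps at 98.6% identity over 941 bases and to the noncoding RNA Gm36026 at 100% over 102 bases. Cd24a aligned to the processed pseudogene Gm6212 at 96.8% over 218 bases. No row of the matrix has these symbols, and the labels do not say how reads shared with such copies were counted. The other 8 genes had no other transcript at 95% identity over 91 bases or more.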

How the data were processed

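Livers and tumors were digested, strained and treated to lyse red cells, and libraries were made with a 10x Genomics 3′ kit, per the labels' protocols. The deposited matrix holds raw UMI counts, which the authors made with Cell Ranger 6.0.1 according to the header. Its build is mm9, per the submitters' processing notes, and no label names the annotation.

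Barcodes with at least 200 genes, 500 UMIs and under 20% mitochondrial UMIs were kept, which removed 1838 for mitochondrial UMIs and 84 for depth. Of the rest, 1367 with a Scrublet score above 0.25 within their library (expected rate 8%) were removed. Kept UMIs were 14321752, 46837725, 22789770 and 37761912 in libraries 1 to 4, and these totals set the counting intervals. Counts were normalised to 10000 and logged. Leiden clustering (resolution 1, scanpy 1.11.5, igraph 0.11.9) used 15 neighbours on 30 components of 2000 variable genes, without the 10 members and without batch correction.

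Clusters were scored by the mean log2 ratio of each class's markers to the lower quartile over clusters, with 20 CPM added. The best class gave the name, unless a detected class had more markers among the 10 leading genes and took it instead. A name needed 3 markers in at least 10% of the cells and 90 cells. Thus 2 clusters with 99 cells stayed unnamed. Class names stand for X-like cells throughout. The members, lists, markers and naming settings were chosen with earlier results of these data known.

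Levels have exact Poisson intervals, shares exact Clopper-Pearson intervals and ratios exact conditional binomial intervals (scipy 1.17.1). A side with 0 UMIs was set to a floor of 3 counts for calls and medians. All 10 members are named. Of list genes up to 8 per list at least 2-fold apart could be named, largest first, and a few of those are, with the 3 most alike genes of each member. Cldn25 alone of the list genes has no row. Ratios were tested on simulated data. The comparison of tumor with normal liver was not run, since no source pairs libraries with samples. Copies were searched with blastn 2.17.0. Of the list genes and motifs, 1 each is not reported here.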

Additional observations from a re-analysis of the deposited data

How the results depend on the processing

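No paired analysis was possible because the matrix is 1 pooled sample and no comparison has replicates. The calls between cholangiocyte-like and hepatocyte-like cells kept their counts within 1.5 times under stricter depth (1000 UMIs) and mitochondrial (10%) filters, with doublets kept, at resolutions 0.5 and 2, with the 10 genes among the clustering genes, without library 2 or 4, without mitochondrial genes in the totals, with libraries at equal weight and with a minimum of 20 UMIs. No cholangiocyte-like cluster formed when cells were clustered again without library 1 or without library 3. With the classes kept, an alternative chosen after seeing the data, 7 to 9 genes were higher and 0 lower without any 1 library, and 78.2% to 81.5% of cholangiocyte-like cells had 3 duct genes.

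With cells thinned to 1000 UMIs, 3 genes reached 100 UMIs and 2 of them were higher, 0 and 0 genes were higher and lower in the Afp-led cluster among 2 tested, and the share of cholangiocyte-like cells with 3 duct genes was 27.1%, with 100% of such cells cholangiocyte-like. This setting both leaves fewer UMIs and clusters the cells again, and the cause was not tested. With classes set by marker counts per cell, 2448 cells counted as cholangiocyte, 1 gene was lower (Cd24a, log2 ratio -1.39), 3.43% of them had 3 duct genes, and 100% of cells with 3 duct genes were among them.

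Krt8 fell short of 2-fold in 3 of 17 settings and Krt18 in 1 of 17. In the Afp-led cluster, the number of genes higher was 3 of 6 tested, and 1 to 3 when cells were clustered again without each library. It was 6 with a minimum of 20 UMIs, which also lets in Krt7, Cldn4 and Cldn7, with 23, 28 and 89 UMIs. Of all genes, 29.7% were higher at the main minimum. No such share is given for the lower minimum, so the 6 cannot be set against all genes. The number lower was 1, but 0 without library 3, where the log2 ratio of Sox9 was 0.23. With the classes kept, 0 to 3 were higher without any 1 library, the lowest without library 2, where 3 genes were tested, and 0 to 1 were lower. Without library 4, 1 was higher of 4 tested. The cause of the change in Sox9 was not tested. Depth limits Cldn4, Krt7 and Epcam in hepatocyte-like cells, where 28, 23 and 14 UMIs were found.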

Other observations

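No label places a library in a group, so these are values of 4 unassigned libraries. In hepatocyte-like cells, libraries 2 and 4 lay near each other and apart from libraries 1 and 3 for both simple keratins, with Krt8 at 817 and 712 CPM in libraries 2 and 4 and at 166 and 243 CPM in libraries 1 and 3. For Krt18 the values were 670 and 708 CPM in libraries 2 and 4 and 212 and 384 CPM in libraries 1 and 3. Sox9 lay the other way, at 1.90 and 0.424 CPM in libraries 2 and 4 and at 9.98 and 15.2 CPM in libraries 1 and 3. Cdh1 did not split in this way, at 2.31, 7.86, 2.63 and 1.21 CPM in libraries 1 to 4. Cells also differed in depth, with a median of 1498, 4911, 1339 and 3440 UMIs per hepatocyte-like cell in libraries 1 to 4, and the part of depth was not tested.

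The 5 barcodes removed as doublets that had at least 3 of the 6 duct genes compare with 84 among the cells kept.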
